A study of Mus musculus with 2 samples.

Results

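Levels of 10 genes for amino acid transporters of the cell surface were measured in single cells of mouse medulloblastoma after proton irradiation. The genes were Slc7a1, Slc7a3, Slc7a5, Slc7a11, Slc3a2, Slc1a4, Slc1a5, Slc38a1, Slc38a2 and Slc6a9, found by symbol among the 31055 features of the count matrices, where each matched 1 feature. The FLASH group was 1 library of tumour cells from Math1-Cre;SmoM2fl/fl mice after FLASH proton irradiation, in which the dose is given at an ultra-high rate. The standard group was 1 library from mice of the same genotype after proton irradiation at the usual rate. In both groups the Math1 promoter drives Cre in progenitors of cerebellar granule neurons, and Cre switches on SmoM2, an active form of the hedgehog signal transducer Smoothened. Both groups carried both alleles and both were irradiated, and no unirradiated tumour is analysed here. The labels of the samples name a dose of 5 Gy, whereas the text on the series names 10 Gy, and the files do not settle which applies. The sources used here do not say how long after irradiation the tissue was taken or how many mice it came from. With 1 library per group there is no replicate check and no test: every difference below describes these 2 libraries, and every 95% interval covers counting error only.

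Amino acids cross the cell membrane through carriers that differ in what they take. Slc7a1 and Slc7a3 carry the cationic amino acids arginine and lysine. Slc7a5 (LAT1, large neutral amino acids such as leucine) and Slc7a11 (xCT, cystine in exchange for glutamate) are light chains that reach the membrane paired with the heavy chain Slc3a2. Slc1a4 and Slc1a5 exchange small neutral amino acids such as alanine, serine and, for Slc1a5, glutamine. Slc38a1 and Slc38a2 bring in glutamine and other neutral amino acids together with sodium, and Slc6a9 takes up glycine. Several of these genes are known targets of ATF4, a transcription factor made when cells lack amino acids or when the integrated stress response is active. In the brain, Slc7a1, Slc7a5 and Slc3a2 are known for carrying amino acids across the endothelium of the blood-brain barrier.

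The FLASH library kept 9507 cells with a median of 5212 UMIs (counts of distinct RNA molecules), and the standard library kept 7889 cells with a median of 5571. Cells were clustered without the 10 transporter genes, and clusters were named from marker genes. Tumour-lineage cells, which carry granule neuron lineage markers, numbered 7320 in the FLASH library and 5981 in the standard library. The 10 progenitor markers, among them Atoh1, Gli1 and Ptch1, summed to 2172 and 2136 CPM, the UMIs of a gene per 1000000 UMIs summed over a group of cells, in tumour-lineage cells of the FLASH and standard libraries, against 168 and 142 CPM in macrophage-like cells. The FLASH and standard libraries held 226 and 198 myeloid cells (macrophage-, microglia- and monocyte-like), 134 and 89 cells of the oligodendrocyte lineage and 50 and 33 that were endothelial-like. Neutrophil-like cells (21 and 14), astrocyte-like ones (13 and 5) and fibroblast-like ones (8 and 5) were few. The libraries shared 46 barcodes, of which 22 passed the cell filter. Granule neuron lineage markers were also counted in other classes. Their median, as a percentage of the tumour-lineage level, was 3.78% in FLASH and 2.96% in standard macrophage-like cells. In the FLASH and standard libraries it was 11.1% and 24.8% in endothelial-like cells and 11.9% and 17.7% in oligodendrocyte precursor-like cells. It was 33.9% and 3.61% in astrocyte-like cells, and 66.2% and 60.8% in erythroid-like cells. The source of this marker RNA was not tested. Erythroid-like cells are not described further.

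In tumour-lineage cells, 4 of the 10 transporters were at least 1.2-fold higher in the FLASH library: Slc7a11, Slc1a4, Slc7a1 and Slc7a3. None was at least 1.2-fold lower. Among all 11950 features with at least 100 UMIs over both libraries, 3.42% were at least 1.2-fold higher and 4.10% at least 1.2-fold lower. The counting interval of the ratio lay above 0 for 5 transporters (12.2% of the features) and below 0 for 1 (11.3%). The median log2 ratio of FLASH over standard was 0.22 over the 10 transporters and 0.00240 over those 11950 features. Both glutamine carriers of the Slc38 family and Slc1a5 had ratios near 0. The count of 4 depended on how cells were weighed: it was 2, Slc7a11 and Slc1a4, when each cell's own CPM was averaged.

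**Figure D1:**
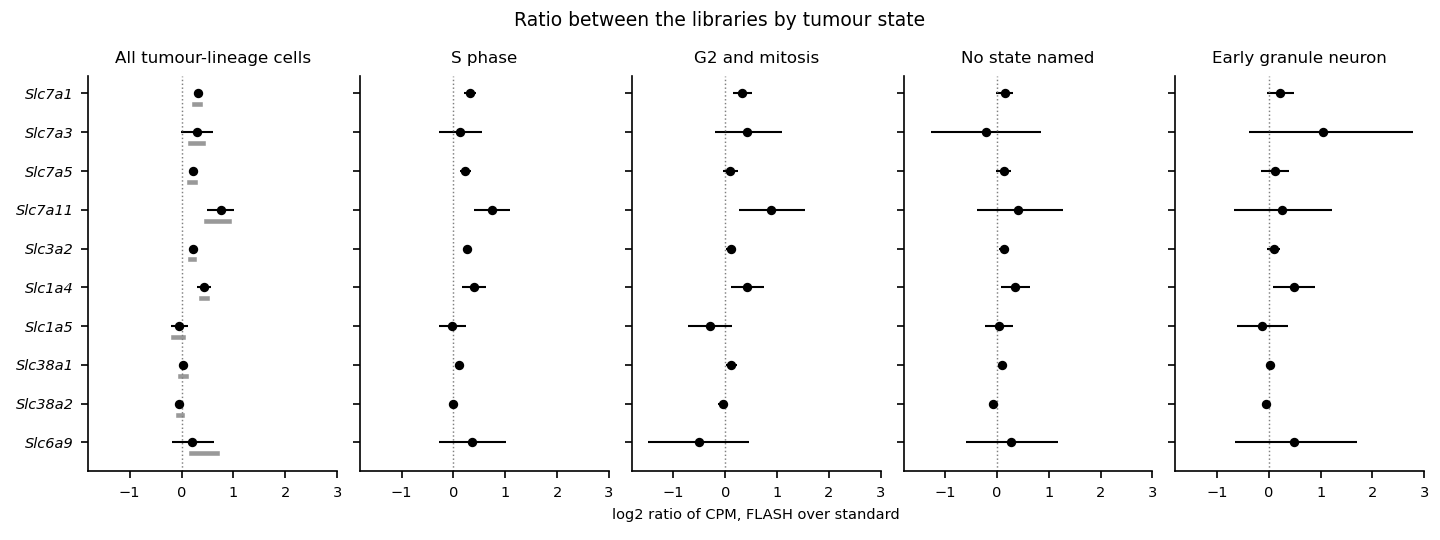
Log2 ratio of CPM, FLASH over standard (x axis, no unit), for each transporter (rows) in all tumour-lineage cells and in 4 groups of tumour clusters. Points are ratios, black bars their 95% counting intervals, and grey bars in the left panel the range over 15 alternative ways of processing. Slc7a11 lies farthest to the right in all tumour-lineage cells, at 0.75, while Slc38a1 (0.03), Slc1a5 (-0.04) and Slc38a2 (-0.04) lie next to 0.

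Of the cationic carriers, Slc7a1 (ENSMUSG00000041313, mouse GRCm38 chromosome 5, 148327410 to 148399904, minus strand) stood at 71.5 CPM in tumour-lineage cells of the FLASH library and 57.6 CPM in those of the standard library, from 3195 and 2261 UMIs. The log2 ratio was 0.31 (95% interval 0.23 to 0.39). The gene was high in both libraries in cells that were copying DNA: the cluster led by replication-dependent histone genes held 142 and 110 CPM, and the cluster entering S phase, led by Cdc6 and Uhrf1, held 119 and 106 CPM in the FLASH and standard libraries. The intervals of these clusters overlapped in the standard library and did not in the FLASH library. It was low in young neurons, with 14.3 and 10.2 CPM in the neuron cluster led by Neurod1 and Grin2b. From the highest to the lowest of the 10 clusters of at least 50 cells in each library, Slc7a1 spanned 9.94-fold in the FLASH library and 10.7-fold in the standard library. The ratio between the libraries was above 0 in 9 of those 10 clusters, and in 3 of them the interval lay above 0. It was 0.37 (0.24 to 0.51) in the histone-rich cluster and 0.57 (0.31 to 0.84) in the mitotic cluster led by Prc1. It was -0.06 (-0.37 to 0.26) in the mitotic cluster led by Ube2c and Cenpf.

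Slc7a3 (chromosome X, 101079210 to 101086020, minus strand), the second cationic carrier, was sparse, with 209 UMIs (4.68 CPM) in FLASH and 149 UMIs (3.80 CPM) in standard tumour-lineage cells. Its log2 ratio of 0.30 had an interval from -0.01 to 0.61, so a difference was not detectable beyond counting error. Its range over tumour states was wide all the same: the S phase clusters together held 10.6 and 9.61 CPM, and the granule neuron clusters 1.22 and 0.57 CPM, in the FLASH and standard libraries. It had 7 and 3 UMIs (13.01 and 10.5 CPM) in oligodendrocyte precursor-like cells and 0 and 2 UMIs in myeloid cells of the FLASH and standard libraries.

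The light chain Slc7a5 (chromosome 8, 121881150 to 121907694, minus strand) and the heavy chain Slc3a2 (chromosome 19, 8706882 to 8723369, minus strand) differed between the libraries by nearly the same ratio. Slc7a5 stood at 89.5 CPM in FLASH and 76.9 CPM in standard tumour-lineage cells, a log2 ratio of 0.22 (0.15 to 0.29). Slc3a2 stood at 208 CPM in FLASH and 179 CPM in standard cells, a log2 ratio of 0.21 (0.17 to 0.26). Both intervals lay above 0, and both ratios were under the 1.2-fold bound. In all 10 clusters Slc7a5 had a ratio above 0, with an interval above 0 in the histone-rich cluster alone (169 CPM in FLASH, 139 CPM in standard cells, ratio 0.28, 0.16 to 0.40). Slc3a2 was above 0 in 9 of the 10, and its intervals lay above 0 in the histone-rich cluster (374 and 317 CPM), the S entry cluster (289 and 243 CPM) and the Hes1-led cluster (158 and 138 CPM). Slc7a5 had a steep gradient over tumour states. It spanned 18.5-fold in the FLASH library and 15.7-fold in the standard library, down to 9.12 and 8.85 CPM in the Neurod1-led neurons. Slc3a2 spanned 5.19-fold and 4.49-fold over the same clusters.

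Slc7a11 (chromosome 3, 49892526 to 50443614, minus strand), the cystine carrier that feeds glutathione synthesis, differed most. It held 355 UMIs (7.95 CPM, 7.14 to 8.82) in FLASH tumour-lineage cells and 185 UMIs (4.71 CPM, 4.06 to 5.44) in standard ones, a log2 ratio of 0.75 (0.49 to 1.02). It was the single transporter at least 1.5-fold higher, as were 0.351% of the 11950 features, and none was 1.5-fold lower (0.536% of features). With each cell thinned to 2000 UMIs the ratio was 0.48 (0.00490 to 0.97). The 5 cells with most Slc7a11 UMIs held 6.48% of them in the FLASH library and 8.65% in the standard library. The difference stood out in 3 clusters: the histone-rich S cluster had 19.5 and 12.03 CPM (ratio 0.69, 0.30 to 1.11), the S entry cluster 18.4 and 10.1 CPM (0.85, 0.19 to 1.57), and the Prc1-led mitotic cluster 21.0 and 7.06 CPM (1.54, 0.77 to 2.44) in the FLASH and standard libraries. In the other mitotic clusters, the 2 clusters with no state named and the neurons it lay between 1.43 and 4.16 CPM in either library, and every interval of the ratio there crossed 0. The nuclear RNA cluster held 8.75 CPM (5 UMIs) in FLASH and 3.38 CPM (3 UMIs) in standard cells.

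The promoters of Slc7a11, Slc1a4 and Slc38a2 are shown because these members had the largest ratio, the second largest and one near 0. Each line gives the 250 bases before the RefSeq start site on the strand of the gene (GRCm38.p6; chr3:50443614-50443863, chr11:20332714-20332963 and chr15:96699729-96699978, all minus strand). Capitals mark matches to TGATGNAA, the core of the C/EBP-ATF response element that ATF4 binds, searched on both strands.
Slc7a11: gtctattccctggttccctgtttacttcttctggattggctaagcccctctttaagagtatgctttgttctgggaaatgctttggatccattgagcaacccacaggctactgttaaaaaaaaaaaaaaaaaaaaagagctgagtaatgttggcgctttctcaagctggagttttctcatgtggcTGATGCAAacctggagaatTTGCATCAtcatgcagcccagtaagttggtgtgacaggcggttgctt
Slc1a4: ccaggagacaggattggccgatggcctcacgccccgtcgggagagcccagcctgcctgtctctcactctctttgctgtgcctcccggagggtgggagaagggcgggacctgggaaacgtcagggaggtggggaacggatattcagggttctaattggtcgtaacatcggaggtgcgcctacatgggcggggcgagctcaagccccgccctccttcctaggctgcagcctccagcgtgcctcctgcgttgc
Slc38a2: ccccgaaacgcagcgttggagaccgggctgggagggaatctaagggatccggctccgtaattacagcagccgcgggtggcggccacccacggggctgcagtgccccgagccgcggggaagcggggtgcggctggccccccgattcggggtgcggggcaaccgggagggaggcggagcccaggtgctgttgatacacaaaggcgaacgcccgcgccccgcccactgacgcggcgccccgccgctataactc
Slc7a11 had 2 matches, TGATGCAA starting at -66 on the gene's strand and TTGCATCA starting at -47, which is the motif on the opposite strand. Positions count back from -1, the base before the start site. Slc1a4 and Slc38a2 had no match in this window, nor had the 3 other members with a RefSeq window (Slc7a1, Slc3a2 and Slc6a9). In all, 6 of the 10 members had a window. Of 32851 such windows over the genome's genes, 3.45% held the motif. Only those 250 bases were searched, so motifs in introns or elsewhere in a gene would be missed. The Slc3a2 window (chromosome 19, 8713898 to 8714147) lies within the gene's own span, 8706882 to 8723369. A match is a run of letters, and binding was not measured. Any link between the motif and the ratios was not tested.

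The neutral amino acid exchangers went separate ways. Slc1a4 (chromosome 11, 20302180 to 20332713, minus strand) stood at 23.7 CPM in FLASH and 17.6 CPM in standard tumour-lineage cells, a log2 ratio of 0.43 (0.30 to 0.58). It was above 0 in all 10 clusters, and the interval lay above 0 in the histone-rich cluster (37.1 and 25.5 CPM, 0.54), the Prc1-led mitotic cluster (39.1 and 23.7 CPM, 0.72) and the Tubb3-positive neurons (14.1 and 9.70 CPM, 0.54). Slc1a5 (chromosome 7, 16781340 to 16798274, plus strand) stood at 16.0 CPM in FLASH and 16.5 CPM in standard cells, a log2 ratio of -0.04 (-0.20 to 0.12). Its ratio was above 0 in 4 of 10 clusters and no interval excluded 0. The level of Slc1a5 did follow tumour state, with 31.9 and 29.7 CPM in the S entry cluster and 3.91 and 4.19 CPM in the Neurod1-led neurons of the FLASH and standard libraries.

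The sodium-coupled glutamine carriers were close to equal between the libraries. Slc38a1 (chromosome 15, 96571418 to 96642913, minus strand) stood at 228 CPM in FLASH and 223 CPM in standard tumour-lineage cells, a log2 ratio of 0.03 (-0.01 to 0.07). Slc38a2 (chromosome 15, 96687392 to 96699730, minus strand) stood at 286 CPM in FLASH and 295 CPM in standard cells, a log2 ratio of -0.04 (-0.08 to -0.01). The interval of Slc38a2 lay below 0, at a fold of 0.970. By cluster, Slc38a2 was lower in FLASH cells entering S phase (349 and 392.3 CPM, -0.17, -0.29 to -0.05), in the Neurod1-led neurons (310 and 352 CPM, -0.18, -0.29 to -0.07) and in the Hes1-led cluster (199 and 216 CPM, -0.12, -0.22 to -0.01). Slc38a1 was higher in FLASH cells of the histone-rich cluster (212 and 188 CPM, 0.18, 0.07 to 0.28) and of the mitotic cluster led by Ccnb2 (212 and 179 CPM, 0.24, 0.03 to 0.46). In the nuclear RNA cluster described next it was lower, at -0.23 (-0.45 to -0.03). Slc38a1 did not follow the division state in the way of Slc7a1. It held 279 and 289 CPM in the Neurod1-led neurons, 268 and 252 CPM in the Tubb3-positive neurons and 264 and 259 CPM in the S entry cluster, whose intervals overlapped those of both neuron clusters in each library. The histone-rich cluster (212 and 188 CPM) and the Prc1-led mitotic cluster (174 and 165 CPM) were lower, with intervals apart from those of the neurons. Its highest level, 513 and 603 CPM, was in a shallow cluster led by nuclear RNAs such as Meg3 and Miat, whose cells had medians of 1806 and 1931 UMIs. Slc38a2 was the most even member, spanning 2.13-fold over the 10 clusters in the FLASH library and 1.94-fold in the standard library.

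Slc6a9 (chromosome 4, 117834506 to 117875198, plus strand), the glycine carrier, had 120 UMIs (2.69 CPM) in FLASH and 91 UMIs (2.32 CPM) in standard tumour-lineage cells. Its log2 ratio of 0.21 had an interval from -0.19 to 0.62, so a difference was not detectable at this depth. The 10 astrocyte markers summed to 220 CPM in FLASH and 204 CPM in standard tumour-lineage cells, none of them at 0. At the ratio of Slc6a9 to these markers in astrocyte-like cells, that amounts to 5.58 and 2.93 CPM of Slc6a9, at or above the level measured. The reckoning takes all marker RNA in tumour-lineage cells as coming from astrocytes. The astrocyte marker S100b was among the genes that led the Hes1-led cluster over the other tumour clusters. Whether Slc6a9 in tumour-lineage cells comes from astrocytes was not tested.

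**Figure D2:**
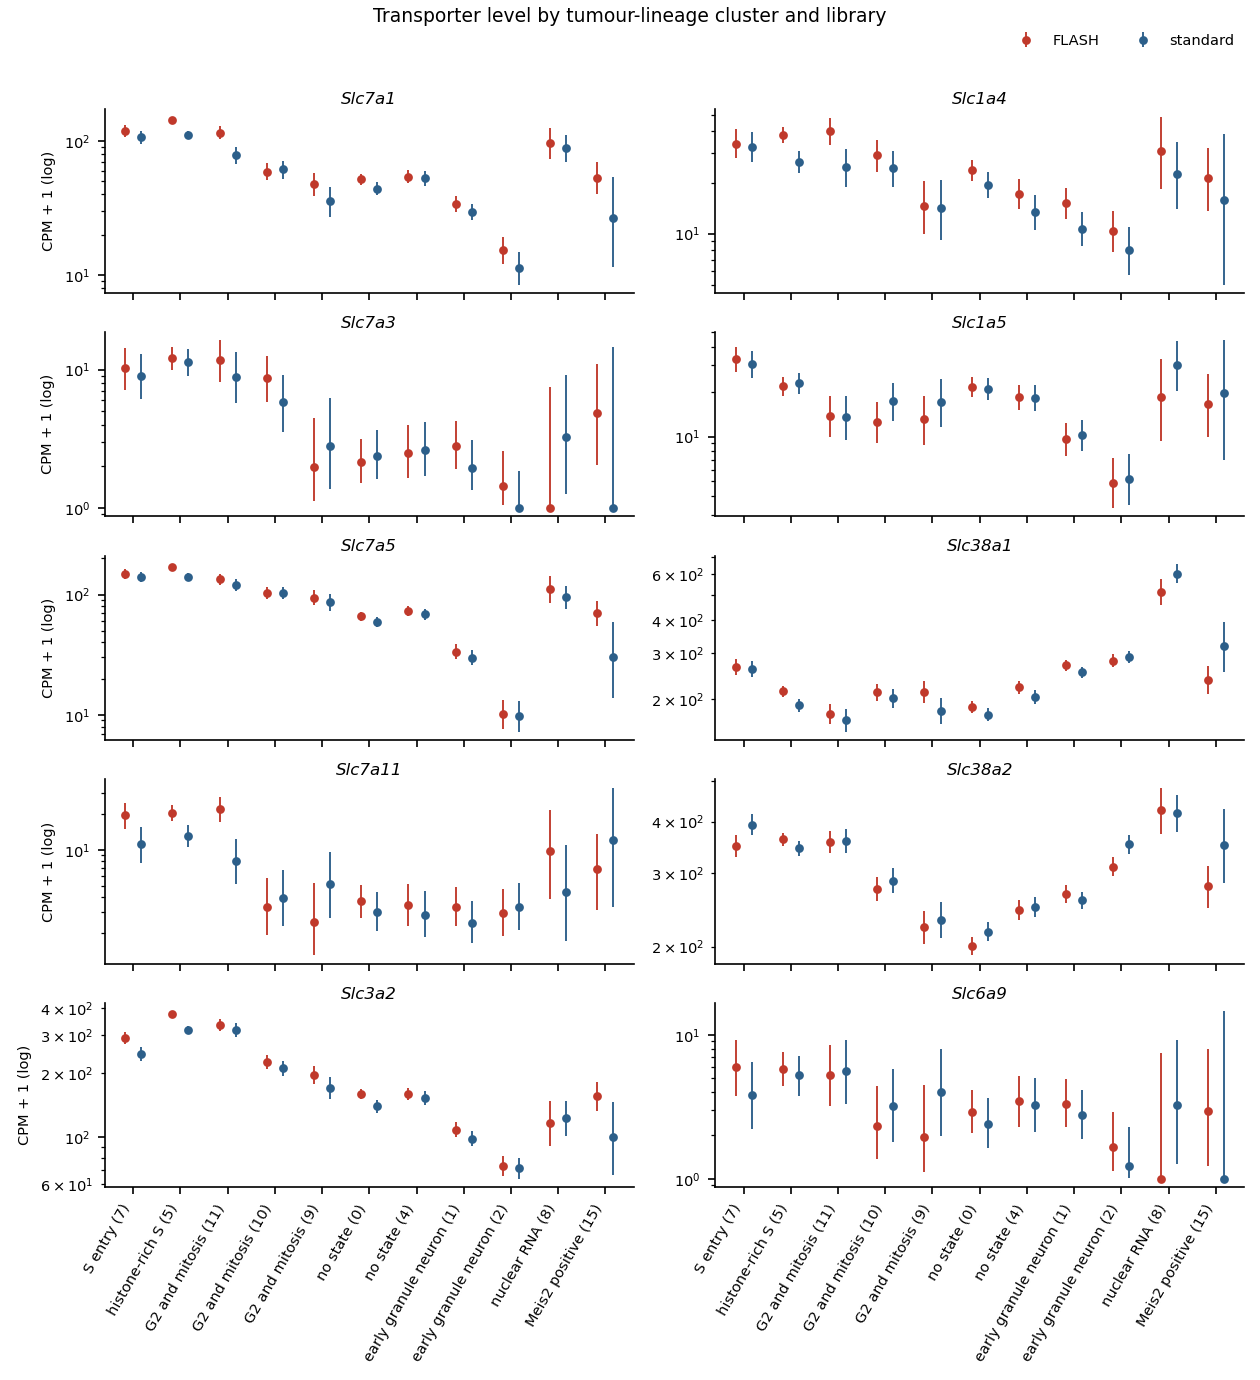
CPM + 1 on a log axis (y) for each transporter in the 11 tumour-lineage clusters (x; cluster number in brackets), FLASH in red on the left of each pair and standard in blue on the right, with exact 95% Poisson intervals. Slc7a1, Slc7a5 and Slc3a2 step down from the S phase clusters on the left to the neuron clusters, whereas Slc38a1 does not. The Meis2-positive cluster had 186 cells in the FLASH library and 46 in the standard library and is left out of counts over clusters.

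Pooled by state, 8 of the 10 transporters were at least 1.5-fold higher in S phase clusters than in granule neuron clusters in both libraries, and none was at least 1.5-fold lower. Of the 11950 features, 19.2% were that much higher in both libraries and 20.6% that much lower. The log2 ratio of S phase over neurons was 2.46 in the FLASH library and 2.36 in the standard library for Slc7a1, 2.86 and 2.75 for Slc7a5, and 3.12 and 2.64 for Slc7a11. It was 1.93 and 1.77 for Slc3a2, 1.85 and 1.75 for Slc1a5, and 1.57 and 1.66 for Slc1a4. The exceptions were the glutamine carriers Slc38a2, at 0.33 and 0.28, and Slc38a1, at -0.27 and -0.35. Cells of the histone-rich cluster were deeper (medians of 8449 and 9844.5 UMIs) than the Neurod1-led neurons (4312 and 4933 UMIs). With each cell thinned to 2000 UMIs the count was again 8. Clusters were formed from the genes of these same cells, so the counts describe them and test nothing. Which single cluster held a gene's maximum was less stable: 5 members had it in an S phase cluster in both libraries (9.62% of features), and this count lay between 0 and 9 under other clusterings and filters.

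The libraries differed in their mix of tumour states. S phase clusters held 19.6% (18.7 to 20.6) of tumour-lineage cells in the FLASH library and 18.4% (17.4 to 19.4) in the standard library. Granule neuron clusters held 30.4% (29.3 to 31.4) in the FLASH library and 32.4% (31.2 to 33.6) in the standard library. The intervals of the libraries overlapped for both of these states. They were apart for the nuclear RNA cluster, at 3.54% (3.13 to 3.99) and 6.67% (6.05 to 7.33). They were also apart for the Meis2-positive cluster, at 2.54% (2.19 to 2.93) and 0.77% (0.56 to 1.02). With clusters held to the same mix in both libraries, the log2 ratios were 0.67 for Slc7a11, 0.41 for Slc1a4, 0.28 for Slc7a1, 0.23 for Slc7a3, 0.18 for Slc7a5 and 0.17 for Slc3a2. Within S phase clusters alone, Slc7a11 had 19.2 CPM in FLASH and 11.4 CPM in standard cells (0.74, 0.41 to 1.10), Slc1a4 36.0 and 27.3 CPM (0.40, 0.17 to 0.63), and Slc7a1 136 and 109 CPM (0.32, 0.21 to 0.44). Within granule neuron clusters the interval excluded 0 for Slc1a4 alone, at 12.04 and 8.60 CPM (0.48, 0.09 to 0.89). The difference between states in these ratios was not tested. The summed level of oligodendrocyte markers in tumour-lineage cells also moved with the library, at 208 CPM in FLASH and 155 CPM in standard cells, with none of the 10 markers at 0. Its part in the ratios was not tested.

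Outside the tumour lineage, the endothelial-like cells, which held all 10 of their defining markers in both libraries, had the highest levels of the amino acid carriers known from the blood-brain barrier. Slc7a1 stood at 700 CPM (581 to 837) in FLASH and 793 CPM (659 to 947) in standard endothelial-like cells, and no interval of another class reached these levels. Slc7a5 stood at 980 CPM (838 to 1140) in FLASH and 1027 CPM (873 to 1200) in standard cells, likewise apart from every other class. Slc3a2 stood at 753 CPM in FLASH and 618 CPM in standard cells. In FLASH cells its interval overlapped those of astrocyte-like (559 CPM) and fibroblast-like cells (434 CPM), and in standard cells it lay above that of the next class. Slc38a2 was also highest there, at 496 CPM in FLASH and 384 CPM in standard cells, although its interval overlapped that of neutrophil-like cells in both libraries. In the standard library it also overlapped those of tumour-lineage, monocyte-like, oligodendrocyte-like and dendritic cell-like cells. In contrast, Slc38a1 had 17.5 and 39.0 CPM. Slc7a11 and Slc6a9 had 0 UMIs in both libraries, which allows levels up to 17.5 CPM in FLASH and 19.5 CPM in standard cells. The ratios between the libraries had intervals across 0 for all members of this class with UMIs.

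**Figure D3:**
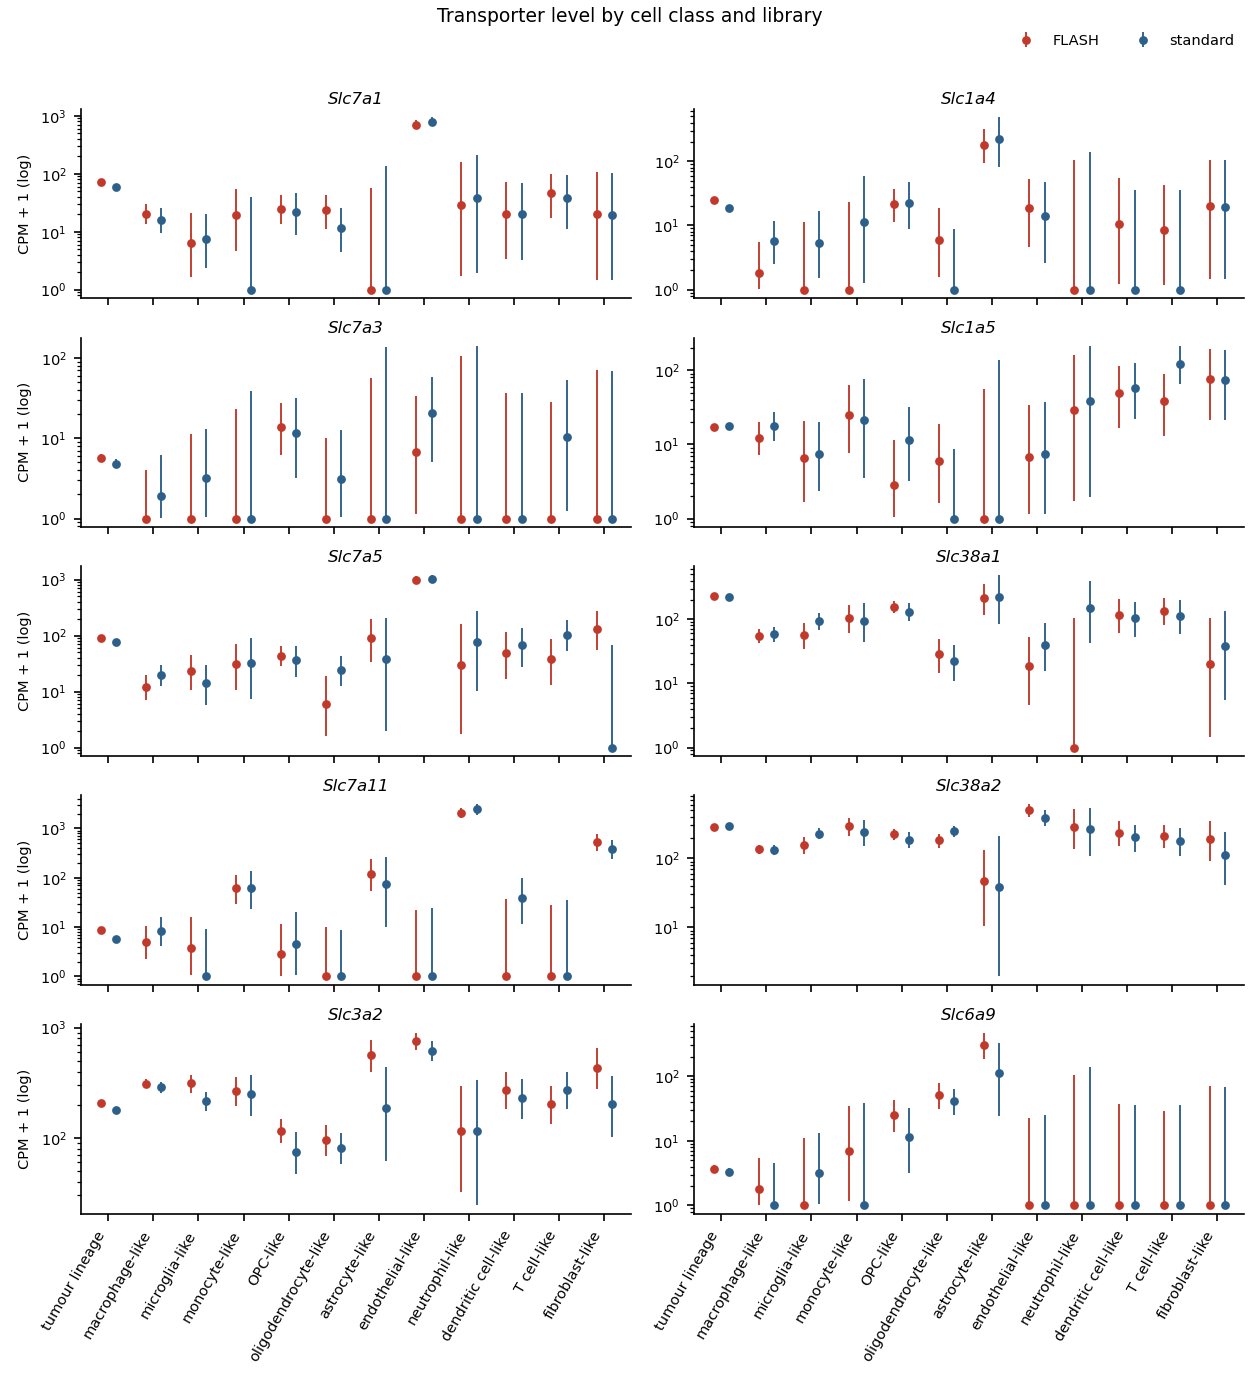
CPM + 1 on a log axis (y) for each transporter in tumour-lineage cells and 11 other classes (x), FLASH in red on the left of each pair and standard in blue on the right, with exact 95% Poisson intervals. Slc7a1 and Slc7a5 peak in endothelial-like cells and Slc7a11 in neutrophil-like cells, at 2052 and 2456 CPM, in both libraries. Points at 1 are classes with 0 UMIs.

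Slc7a11 had its highest level in neutrophil-like cells. They held 72 UMIs (2052 CPM, 1606 to 2584) in the FLASH library and 65 UMIs (2456 CPM, 1896 to 3131) in the standard library, in 21 and 14 cells with medians of 1579 and 1775.5 UMIs. Fibroblast-like cells followed, at 528 CPM in FLASH and 387 CPM in standard cells, then astrocyte-like cells at 121 and 74.5 CPM and monocyte-like cells at 60.4 and 61.9 CPM. The neutrophil and fibroblast intervals did not overlap in either library, while those of astrocyte- and monocyte-like cells did. In tumour-lineage cells the 10 neutrophil markers summed to 1.66 CPM in FLASH and 1.27 CPM in standard cells, with 2 and 5 of them at 0. At the ratio of Slc7a11 to these markers in neutrophil-like cells, that amounts to 0.0326 and 0.0579 CPM of Slc7a11, against the 7.95 and 4.71 CPM measured. The same reckoning gives 1.90 CPM in FLASH and 1.12 CPM in standard cells from fibroblast markers, and 2.23 and 1.95 CPM from astrocyte markers. Each of these figures takes all marker RNA in tumour-lineage cells as coming from the marked class. The source of Slc7a11 RNA in tumour-lineage cells was not tested.

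Slc6a9 had its highest levels in glial cells. Astrocyte-like cells held 20 UMIs (302 CPM, 184 to 466) in the FLASH library and 3 UMIs (112 CPM, 23.0 to 326) in the standard library. Oligodendrocyte-like cells held 49.7 and 39.9 CPM and oligodendrocyte precursor-like cells 24.2 and 10.5 CPM. All 3 classes were above the 2.69 and 2.32 CPM of tumour-lineage cells, although in the standard library the intervals of the 3 overlapped one another and that of precursor-like cells overlapped the tumour level. Slc1a4 was likewise highest in astrocyte-like cells, at 181 CPM (12 UMIs) in FLASH and 223 CPM (6 UMIs) in standard cells, although the intervals overlapped those of fibroblast- and neutrophil-like cells, which held 0 or 1 UMI. At the ratio of Slc1a4 to the astrocyte markers in these cells, those markers in tumour-lineage cells amount to 3.35 CPM of Slc1a4 in FLASH and 5.85 CPM in standard cells, of the 23.7 and 17.6 CPM measured. These figures take all marker RNA in tumour-lineage cells as coming from astrocytes. The part of astrocyte RNA in the tumour-lineage level was not tested. With 13 and 5 cells, the astrocyte-like values rest on few cells. Slc1a5 had its highest levels in fibroblast-like cells (75.4 CPM) in the FLASH library and in T cell-like cells (122 CPM) in the standard library, and these intervals overlapped those of the next class.

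In myeloid cells, 3 members had at least 100 UMIs over both libraries, and none was past 1.2-fold in either direction, where 12.7% of 4136 features were higher and 14.4% lower. Slc3a2 stood at 306 CPM in FLASH and 263 CPM in standard myeloid cells, a log2 ratio of 0.22 (0.03 to 0.41), and was above its level in tumour-lineage cells in both libraries. Slc38a2 stood at 154 and 164 CPM in FLASH and standard myeloid cells, and Slc38a1 at 58.8 and 69.0 CPM. Slc7a5, the partner of Slc3a2, had 15.3 and 17.9 CPM in the same cells. The macrophage-like cells had 310 and 286 CPM of Slc3a2 (0.12, -0.10 to 0.34). Microglia-like cells had 311 CPM (257 to 374) in FLASH and 213 CPM (173 to 260) in standard cells, and monocyte-like cells 266 and 247 CPM. Slc38a2 stood at 154 CPM (117 to 200) in FLASH and 229 CPM (187 to 277) in standard microglia-like cells. Macrophage-like cells had 135 and 130 CPM of Slc38a2, and monocyte-like cells 290 and 237 CPM, in the FLASH and standard libraries. The differences between these classes were not tested. In oligodendrocyte-lineage cells, 2 of the 3 members with 100 UMIs were at least 1.2-fold higher in the FLASH library, where 20.1% of 3136 features were, and none was lower (15.8%). These were Slc38a1, at 100.0 CPM in FLASH and 61.8 CPM in standard cells (0.69, 0.17 to 1.23), and Slc3a2, at 106 and 77.6 CPM (0.45, -0.02 to 0.95). Precursor-like cells, which had more Slc38a1 (154 and 130 CPM) than oligodendrocyte-like cells (27.3 and 21.0 CPM), were 100 of 134 cells in the FLASH library and 49 of 89 in the standard library. Within precursor-like cells the ratio of Slc38a1 was 0.24 (-0.33 to 0.85).

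Over the classes with at least 50 cells in each library, 4 members (Slc7a3, Slc7a11, Slc3a2 and Slc6a9) had their highest level outside the tumour lineage in both libraries, where 49.0% of 12654 features did. The count was 8 when classes of at least 10 cells were added, a choice made after seeing the data, and 2 once the 5 cells richest in each gene were removed. For Slc7a3 the intervals of oligodendrocyte precursor-like cells (5.23 to 26.8 CPM in FLASH, 2.17 to 30.8 in standard) overlapped those of tumour-lineage cells (4.07 to 5.36 and 3.21 to 4.46). For Slc7a11 the intervals of macrophage- and microglia-like cells overlapped that of tumour-lineage cells, and those of monocyte-like cells lay above it.

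Other genes of amino acid supply and its sensing were described from lists. The 25 genes for ATF4 and its targets all had at least 100 UMIs in tumour-lineage cells, with a median log2 ratio of 0.29. Of the 25, 14 were at least 1.2-fold higher in the FLASH library, where 3.42% of the 11950 features were. None was that much lower (4.10% of features). The largest were the pseudokinase gene Trib3, at 1.57 CPM in FLASH and 0.84 CPM in standard cells (0.89, 0.28 to 1.54), and the stress gene Nupr1, at 31.6 and 18.3 CPM (0.79, 0.66 to 0.92). Cth, for the last enzyme of cysteine synthesis, had a ratio of 0.48 (0.01 to 0.97), and Eif4ebp1, a translation repressor controlled by mTORC1, 0.48 (0.41 to 0.55). Atf4 itself stood at 167 CPM in FLASH and 156 CPM in standard cells, a ratio of 0.10 (0.05 to 0.15). Of the 23 list genes with a promoter window, 7 held the motif printed above (30.4%), against 3.91% of all genes with a window. Of the 6 transporters with a window, 1 held it (16.7%). The list was made of known ATF4 targets, so a large share was built in and says nothing about these libraries.

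Of 43 other amino acid transporters, 18 had at least 100 UMIs, with a median log2 ratio of 0.02. Of those 18, 1 was at least 1.2-fold higher, where 3.42% of the 11950 features were, and none was that much lower (4.10%). That gene was Slc7a2, another cationic carrier, at 3.09 CPM in FLASH and 2.32 CPM in standard cells (0.41, 0.02 to 0.81). The neutral carrier Slc6a15 (0.22, 0.03 to 0.42) and the glutamate carrier Slc1a3 (0.16, 0.08 to 0.23) were under the bound, and Slc7a7, another Slc3a2 partner, had -0.21 (-0.79 to 0.36). Of 23 genes that sense amino acids upstream of mTORC1, 20 were in the files. None of the 20 passed 1.2-fold in either direction, where 3.42% of features were higher and 4.10% lower. Their median was 0.03, and the largest ratios were those of Nprl2 (-0.17), Nprl3 (0.13), Lamtor5 (0.12) and Depdc5 (-0.10). The lists were chosen with results of these data known, and their counts are descriptions.

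**Figure D4:**
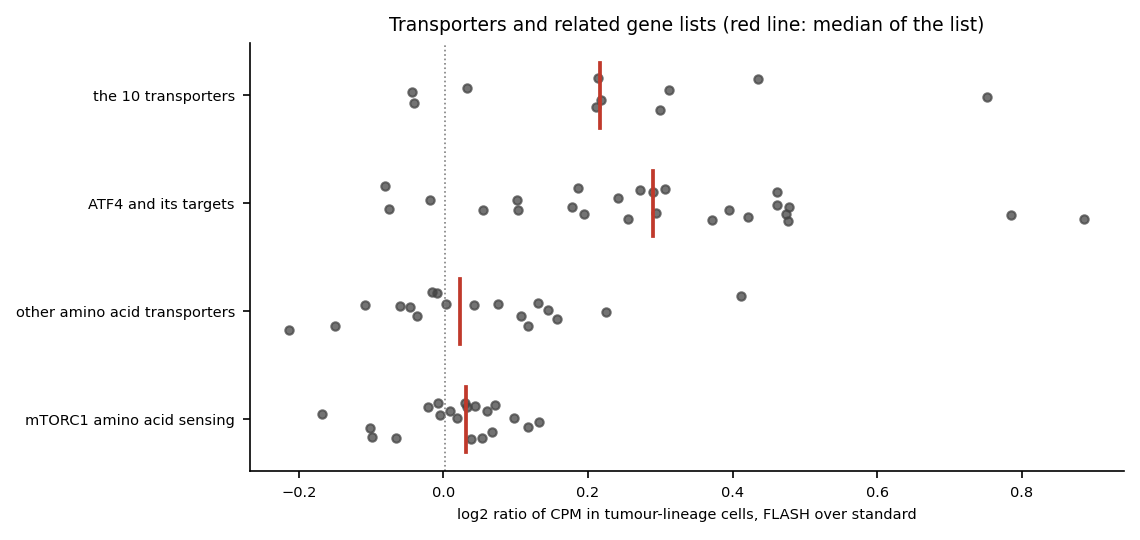
Log2 ratio of CPM in tumour-lineage cells, FLASH over standard (x axis), for the genes of 4 lists with at least 100 UMIs (1 point each; vertical scatter is for legibility). Red lines are list medians, 0.22, 0.29, 0.02 and 0.03 from top to bottom, and the dotted line is the median of all 11950 features.

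Across 24 points, which are 12 groups of cells in each of the 2 libraries, the pattern of each member was set beside those of 10299 genes. Each group had at least 50 cells in each library, so endothelial-, neutrophil-, astrocyte- and fibroblast-like cells were left out. The points share libraries and depth, so the correlations of log2(CPM + 10) are descriptions. Slc7a1 ran closest to Topbp1 (r = 0.96), Skp2 and Brca2. Slc7a5 ran closest to Icmt (r = 0.96), Scaf11 and Vars, and Slc3a2 to Eif4ebp1 (r = 0.97), Nupr1 and Pim1. Slc7a11 ran closest to Tk1 (r = 0.86), Aars and Ncapg2, and Slc7a3 to Iars (r = 0.93), Ccdc25 and E2f8. Slc1a4 ran closest to Cntln (r = 0.93), Brca2 and Hirip3, and Slc1a5 to Baz1a (r = 0.92), Eif3a and Umps. Slc38a1 ran closest to Atrx (r = 0.97), Zbtb10 and Celsr3, and Slc38a2 to Nsd2 (r = 0.97), Stag1 and Lnpk. Slc6a9 ran closest to Mmp15 (r = 0.97), Zfp365 and Arhgef10. Over the 10 tumour clusters of at least 50 cells, Slc6a9 was at most 4.94 CPM in FLASH and 4.57 CPM in standard cells. Between members, the most alike were Slc7a1 and Slc7a5 (r = 0.94) and the least alike Slc38a1 and Slc6a9 (r = -0.41). The heavy chain Slc3a2 had r = 0.71 with Slc7a11 and 0.59 with Slc7a5.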

How the data were processed

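Tumour tissue was dissociated and sequenced as 10x Genomics V3 single-cell libraries, 1 per group. The deposited matrices hold raw counts of UMIs per gene and barcode. Per the file headers they came from Cell Ranger 6.1.2, and per the submitters' processing notes the genome was mm10. No source used here gives the annotation release. The FLASH library held 14269 barcodes with 63178900 UMIs and the standard library 12867 with 55532202. Members and lists were chosen with earlier results of these data known.

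Barcodes with at least 500 genes and at most 10% mitochondrial UMIs were kept (10366 and 8461). Scrublet's automatic cutoff called no doublets, so the highest scores were removed at 0.8% per 1000 cells (859 and 572 cells). Cells of both libraries were clustered together in scanpy 1.11.5 (2000 variable genes without the members, 30 components, 15 neighbours, Leiden resolution 1.0, leidenalg 0.10.2). A class needed at least 3 markers at a log2 ratio of 1.0 or more, with 20 CPM added. Leukocyte and glial subclusters under 1/3 of library depth stayed unnamed unless a marker of the class led them. Clusters with granule neuron lineage markers stayed unnamed under that depth whatever led them. In all, 1657 and 1501 cells stayed unnamed. Among them were a shallow cluster of 923 and 867 cells with 11 lineage markers passed and one of 565 and 491 cells with 8. These cells are left out of all tumour-lineage values. The naming cutoffs and the comparison of S phase with neuron clusters were set after seeing the data.

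UMIs were summed per class and library. Intervals are 95%: exact Poisson for CPM, conditional binomial for ratios (0.5 count added) and Clopper-Pearson for shares. A count of 0 allows up to 3 counts. A call is 1.2-fold or 1.5-fold; no test was possible. All 10 members are named; from each other list the 4 largest absolute ratios with at least 100 UMIs; for each member the 3 genes most alike, among those with at least 20 CPM in some class. Gene positions are from GENCODE M21 (GRCm38) and promoters from RefSeq. Alternatives changed filters, doublets, depth, scaling, cell mix, weighting and clustering. Calculations were checked on simulated counts.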

Additional observations from a re-analysis of the deposited data

Results flagged for a closer look

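Slc1a4, the alanine and serine exchanger, had a log2 ratio of FLASH over standard of 0.43 in tumour-lineage cells and of -2.63 in myeloid cells, with intervals on opposite sides of 0. The myeloid value rests on 1 UMI in the FLASH library and 8 UMIs in the standard library, with an interval from -8.60 to -0.23. The difference between the classes was not tested.

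Slc7a5, the LAT1 light chain, had a log2 ratio of 0.22 in tumour-lineage cells and of -1.96 in oligodendrocyte-like cells. The second value rests on 2 UMIs in 34 FLASH cells and 11 UMIs in 40 standard cells, with an interval from -5.43 to -0.02. This difference was not tested either.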

How the results depend on the processing

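No paired analysis was possible because there is 1 library per group and the labels carry no replicate numbers. The count of members at least 1.2-fold higher in tumour-lineage cells lay between 2 and 5 over 15 alternatives and was 2 with the mean over cells of the per-cell CPM. The count at least 1.2-fold lower was 0 in each of the 15, and the median log2 ratio lay between 0.18 and 0.30. The count of members at least 1.5-fold higher in S phase than in granule neuron clusters was 8 in each of 11 alternatives. The count of members with their maximum in an S phase cluster, 5, was 9 at Leiden resolution 0.5, 0 at resolution 2.0, 1 with at least 1000 genes, 1 with doublet calls kept, 1 with each library clustered by itself, and 8 without the 5 cells richest in each gene; the cause was not tested. The count with the highest level outside the tumour lineage, 4, was 8 with classes of at least 10 cells added and 2 without the 5 top cells. That addition and the fits without the nuclear RNA cluster or the Meis2-positive cluster were chosen after seeing the data. Over 18 values (the ratios of single members and 2 percentages of all features) and 17 settings, 218 of 230 alternatives stayed within a bound. The other 12 went past it. The bound was the counting interval for ratios and 1.5-fold for the 2 percentages, and both percentages went past it. Slc38a2 in oligodendrocyte-lineage cells, at -0.13, was 0.44 under a mitochondrial limit of 5%, 0.42 at resolution 2.0 and 0.54 with a minimum of 1000 genes. Slc38a1 in tumour-lineage cells, at 0.03, was -0.04 with the mean over cells. Without a UMI minimum, 18.6% of all features were at least 1.2-fold higher and 16.3% lower.

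Depth limits Slc7a3 and Slc6a9 in most classes and all members in classes of few cells. Animals, tissue handling and irradiation cannot be told apart with 1 library per group.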

Other observations

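Transporters outside the 10 marked other cell classes; these were chosen after their values were seen. Myeloid cells held Slc7a7 (y+LAT1), the Slc3a2 partner for cationic amino acids, at 122 CPM in the FLASH library and 99.8 CPM in the standard library, and Slc7a8 (LAT2), a neutral Slc3a2 partner, at 109 and 99.2 CPM. Tumour-lineage cells held 1.19 and 1.38 CPM of Slc7a7 and 0.81 and 0.79 CPM of Slc7a8. Slc43a2, a neutral amino acid carrier, stood at 110 and 98.6 CPM in myeloid cells against 7.01 and 7.19 CPM in tumour-lineage cells of the FLASH and standard libraries.

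Endothelial-like cells held the taurine carrier Slc6a6 at 811 CPM in the FLASH library and 468 CPM in the standard library, and the glutamine carriers Slc38a5 at 210 and 403 CPM and Slc38a3 at 163 and 97.5 CPM. In these cells Slc38a5 rested on 36 and 62 UMIs. Slc38a5 had 1 UMI in tumour-lineage cells of each library. Oligodendrocyte-like cells held the glutamate carrier Slc1a1 at 318 and 282 CPM, against 4.97 and 4.61 CPM in tumour-lineage cells.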
